A study of Mus musculus with 7 samples.

Results

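In tumours grown from NSCG, a mouse glioma line, 541 non-cycling tumour cells had a summed count of 5 or more unique molecular identifiers (UMIs, each standing for 1 captured RNA molecule) for Cxcl10, Gbp2, Igtp and Iigp1. These cells are called interferon-responding below. They were chosen in 3 steps from 51795 kept barcodes, each with 1000 UMIs or more from 500 genes or more and with no more than 15% of them mitochondrial. The tumour gate asked for at least 2 UMIs of Egfr, Cdkn2a, Sox2 and Nes and for none of Ptprc, C1qa, Cldn5 and Pecam1, which mark leukocytes, microglia and endothelium, and it kept 26182 barcodes. Leaving out every barcode with a UMI of the division genes Top2a or Mki67 kept 1154, or 4.41% of them. Non-cycling thus means only that no such UMI was seen, and depth bears on that. Of these 1154 cells, 541 passed the 4-gene threshold, 266 had a sum of 1 to 4 and 347 had a sum of 0. The interferon-responding cells made up 46.9% of the gated non-cycling tumour cells and 1.04% of all kept barcodes. The members were chosen by their own reads, so the level of the 4 genes in them is given as a description and is not tested.

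Interferons are secreted proteins that put cells on an antiviral and antigen-presenting footing. Interferon gamma, made by T cells and natural killer cells, binds the receptor pair IFNGR1 and IFNGR2, activates the kinases JAK1 and JAK2 and acts on genes through GAS elements in the DNA. Type I interferons, which most cells can make, bind IFNAR1 and IFNAR2 and act mainly at ISRE elements, through a complex that holds STAT2 and IRF9. Many genes answer to both. In glioma cells, as in other tumour cells, the response includes MHC class I and its peptide-loading machinery, guanylate-binding proteins and immunity-related GTPases that attack the membranes of intracellular microbes, chemokines that draw lymphocytes, and the inhibitory ligand PD-L1. Of the 4 genes used here, Cxcl10 encodes a chemokine for T cells and natural killer cells, Gbp2 a guanylate-binding protein, and Igtp and Iigp1 immunity-related GTPases.

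The libraries came from whole tumours, digested with enzymes, of C57BL/6 hosts aged 7 to 10 weeks with the genotype given as WT, and all were taken at about day 14. The line is labelled NSCG-mCherry, EGFRvIII+ and Arf/Ink4a-/-, so the labels give every library the EGFRvIII form of the EGF receptor and a loss of the Arf/Ink4a locus. Cdkn2a, the gene of that locus, had UMIs in 430 of the 541 members, and since the kit reads the 3′ end and the labels do not say which part is deleted, these reads check nothing about the deletion. It is a transplanted line growing in hosts with an intact immune system, and each library pooled at least 2 mice of a group, so that mice cannot be told apart. Untreated mice gave 1 library (UT). Isotype antibody (IgG2b, 10 mg/kg) was given to the hosts of the 2 IgG libraries. For the 2 BP libraries the hosts received 5 mg/kg of B20, which blocks VEGF, and 10 mg/kg of anti-PD-L1. BPI mice received both of these and IPI-145 (10 mg/kg), an inhibitor of the delta and gamma forms of PI3-kinase, by gavage every day (1 library). CD40 mice received 2 doses of 100 µg of an agonist antibody against CD40, and the labels leave the use of a dendritic cell vaccine unclear (1 library). Injections into the peritoneum were repeated every 3 days for IgG, BP and BPI, starting 6 or 7 days after implantation for BP, and tumours were taken after 3 rounds. A pooled library counts as 1 replicate throughout. The libraries held 68997476 to 186793886 UMIs in all and 5626 to 10539 kept barcodes each, and any pair of libraries shared 0 to 26 kept barcode sequences. Levels are given as CPM, counts scaled in the usual way to the summed UMIs of the cells concerned.

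**Figure D1:**
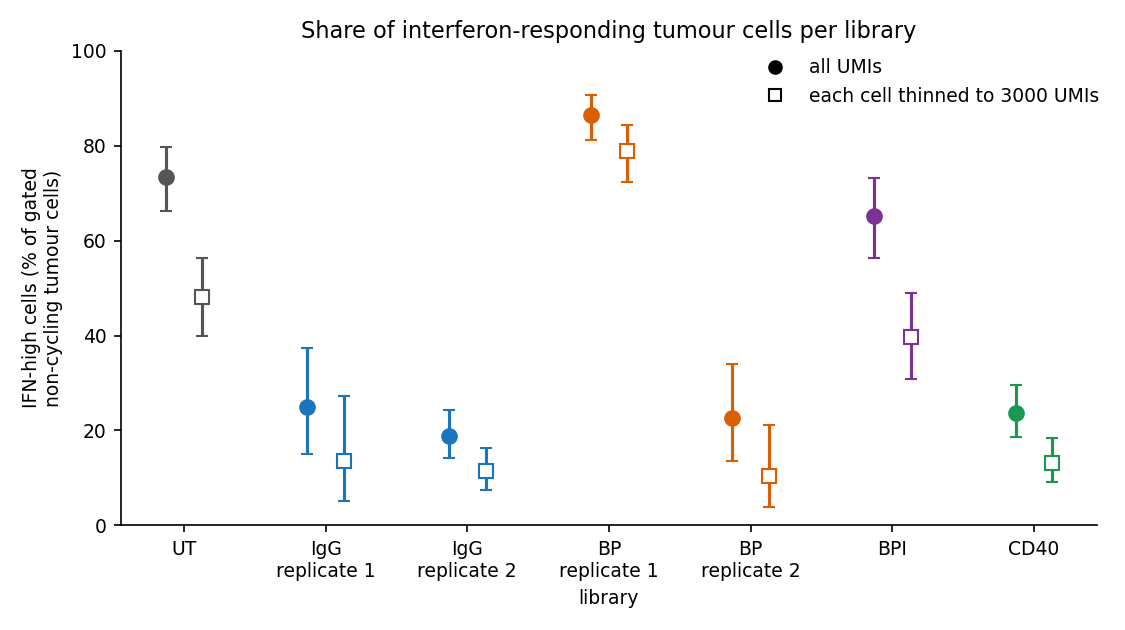
Share of gated non-cycling tumour cells (%, vertical axis) that passed the 4-gene threshold in each of the 7 libraries, on all UMIs and with each cell thinned to 3000 UMIs. Bars are exact 95% intervals for counting error. UT, BP replicate 1 and BPI lie between 65.1% and 86.4% on all UMIs, and the other 4 libraries between 18.9% and 25.0%.

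The share of gated non-cycling cells that were interferon-responding fell into 2 separate clusters of libraries, and the 2 BP libraries fell into different ones. It was 86.4% in BP replicate 1 (190 of 220 cells, exact Clopper-Pearson 95% interval 81.1 to 90.6), 73.4% in UT (130 of 177, 66.3 to 79.8) and 65.1% in BPI (84 of 129, 56.2 to 73.3). In the lower cluster it was 25.0% in IgG replicate 1 (16 of 64, 15.0 to 37.4), 23.8% in CD40 (58 of 244, 18.6 to 29.6), 22.5% in BP replicate 2 (16 of 71, 13.5 to 34.0) and 18.9% in IgG replicate 2 (47 of 249, 14.2 to 24.3). Neighbours within the lower cluster have overlapping intervals and were not told apart at this depth, whereas the lowest of the higher cluster lies well above all 4. These intervals cover counting error within a library and not the variation between mice. The BP libraries lay far apart, 1 with the highest share and 1 in the lower cluster, so that the mean of 54.4% ± 45.1 (SD, n = 2) against 21.9% ± 4.33 in IgG gave a difference of 32.5 percentage points with a two-sided exact permutation p of 0.667, and 2 libraries against 2 cannot give a p below 0.333. Without BP replicate 1 the difference was 0.597 points. With Top2a and Mki67 allowed, so that most cells were cycling, both BP libraries (95.9% and 38.9%) lay above both IgG libraries (21.1% and 7.25%).

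Part of a share set by a fixed number of UMIs depends on depth, since interferon-responding cells were the deeper ones. Their median depth was 12535.5 UMIs in UT, 10176.5 in IgG replicate 1, 15930 in IgG replicate 2, 14505.5 in BP replicate 1, 9162.5 in BP replicate 2, 8177.5 in BPI and 15537 in CD40, against 1528 to 8831.5 in the cells of the same libraries with a sum of 0. After every cell was thinned at random to 3000 UMIs, which left out 136 shallower gated cells, the shares were 48.1% in UT, 13.6% in IgG replicate 1, 11.4% in IgG replicate 2, 78.9% in BP replicate 1, 10.3% in BP replicate 2, 39.7% in BPI and 13.2% in CD40. The same 3 libraries stood above the other 4. Near the threshold, 48 gated cells had a sum of 3, 41 a sum of 4, 26 a sum of 5 and 24 a sum of 6, so a small part of the members lies close to the cut.

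Promoters show which of the recognition sequences named above lie in front of the genes concerned. Those of 7 genes are shown, 3 of the rule genes and 4 that rose beside them, to let the motifs be seen; each runs from 250 bases before to 50 after the start site, 5′ to 3′ on the gene's strand, and comes from RefSeq (GRCm38.p6). Capitals mark matches to GAS, searched as TTCNNNGAA, and to ISRE, searched as GAAA, any 2 bases and GAAA, both on either strand; a GAS match and an ISRE match may share bases.
Gbp2, chr3:142620413-142620712, plus strand: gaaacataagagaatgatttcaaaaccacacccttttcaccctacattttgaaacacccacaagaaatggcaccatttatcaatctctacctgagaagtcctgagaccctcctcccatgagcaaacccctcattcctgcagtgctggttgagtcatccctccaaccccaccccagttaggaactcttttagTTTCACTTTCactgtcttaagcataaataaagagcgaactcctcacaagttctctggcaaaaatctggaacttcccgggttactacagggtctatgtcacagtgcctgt
Igtp, chr11:58199306-58199605, plus strand: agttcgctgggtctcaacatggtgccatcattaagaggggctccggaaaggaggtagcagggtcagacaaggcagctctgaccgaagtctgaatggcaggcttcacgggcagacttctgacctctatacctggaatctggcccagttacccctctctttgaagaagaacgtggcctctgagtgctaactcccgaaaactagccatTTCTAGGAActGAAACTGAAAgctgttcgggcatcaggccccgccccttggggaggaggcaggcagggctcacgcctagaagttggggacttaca
Cxcl10, chr5:92348840-92349139, minus strand: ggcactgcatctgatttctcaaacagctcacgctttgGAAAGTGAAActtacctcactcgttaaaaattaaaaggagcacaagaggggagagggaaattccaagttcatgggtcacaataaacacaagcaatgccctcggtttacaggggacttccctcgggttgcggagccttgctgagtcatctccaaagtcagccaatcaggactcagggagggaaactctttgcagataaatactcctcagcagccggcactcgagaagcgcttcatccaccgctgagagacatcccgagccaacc
Gbp5, chr3:142496684-142496983, plus strand: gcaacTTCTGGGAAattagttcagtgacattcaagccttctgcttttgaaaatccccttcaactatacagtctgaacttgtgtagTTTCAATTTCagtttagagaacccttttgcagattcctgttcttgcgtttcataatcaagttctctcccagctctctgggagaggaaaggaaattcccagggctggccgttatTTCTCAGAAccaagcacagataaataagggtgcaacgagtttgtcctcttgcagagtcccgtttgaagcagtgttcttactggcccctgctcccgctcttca
Irgm1, chr11:48871371-48871670, minus strand: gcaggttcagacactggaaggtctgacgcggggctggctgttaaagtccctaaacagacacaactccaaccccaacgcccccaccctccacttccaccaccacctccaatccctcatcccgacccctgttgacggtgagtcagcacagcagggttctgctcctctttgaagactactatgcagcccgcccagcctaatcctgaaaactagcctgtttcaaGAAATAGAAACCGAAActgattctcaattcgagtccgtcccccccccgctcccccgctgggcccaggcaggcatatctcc
Isg15, chr4:156200769-156201068, minus strand: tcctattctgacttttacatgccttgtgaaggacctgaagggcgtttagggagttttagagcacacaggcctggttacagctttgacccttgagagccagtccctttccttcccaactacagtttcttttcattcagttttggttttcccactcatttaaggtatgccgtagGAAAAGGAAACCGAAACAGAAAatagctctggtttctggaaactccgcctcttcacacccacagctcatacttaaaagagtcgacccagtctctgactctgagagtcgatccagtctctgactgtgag
B2m, chr2:122147437-122147736, plus strand: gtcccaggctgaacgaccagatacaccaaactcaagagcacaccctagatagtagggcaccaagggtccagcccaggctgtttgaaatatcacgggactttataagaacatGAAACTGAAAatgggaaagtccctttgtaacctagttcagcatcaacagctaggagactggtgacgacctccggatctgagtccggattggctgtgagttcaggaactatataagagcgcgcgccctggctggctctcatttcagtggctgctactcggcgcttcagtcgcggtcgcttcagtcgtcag
Igtp holds a GAS match at -45 and an ISRE match at -34 from the start, and Gbp5 holds GAS matches at -245 and -52 and an ISRE match at -165. The other 5 hold ISRE matches and no GAS match: Gbp2 at -59, Cxcl10 at -213 and B2m at -139, while Irgm1 (at -30 and -24) and Isg15 (at -78, -72 and -66) carry runs of overlapping ISRE matches. The 7 were picked because they hold a match: of 46 named risers and rule genes with an entry, 21 held either motif, and Tap1, H2-Aa, Psmb9 and H2-K1, which also rose, held neither. A match is a description of letters and not a site of binding.

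The label was checked against genes that the gate did not use, since Egfr, Cdkn2a, Sox2 and Nes are in every member's selection and check nothing. The other 6 genes of the tumour list were Bcan, Fabp7, Olig1, Olig2, Ptprz1 and Wfdc2. Several of them are glial genes, so this check cannot tell tumour cells from glia of the host. Bcan, a proteoglycan of brain matrix, was present in the members of all 7 libraries, at 17.5 to 138 CPM. The rest divided the libraries. Wfdc2 stood in the members at 151 CPM in IgG replicate 1, 380 in BP replicate 2 and 350.2 in BPI, and at 0 to 1.11 in the other 4. Ptprz1, a receptor phosphatase of glial progenitors, had no UMI in the members of those 3 libraries and stood at 126 to 324 CPM in the other 4, and Olig1, a transcription factor of the oligodendrocyte lineage, had none against 53.0 to 422 CPM. Cycling tumour cells showed the same division, with Wfdc2 at 305 to 390 CPM against 0.179 to 1.46, Ptprz1 at 0.896 to 1.19 against 59.0 to 89.6 and Olig1 at 0.239 to 0.668 against 70.1 to 311. The labels name 1 line for all 7 libraries. The IgG pair and the BP pair each hold 1 library of either kind. This division is set into fits below as an interaction and, for BP against IgG within the members, as a block. Markers of lymphocytes were close to zero: the summed level of 5 T cell markers was 0 to 10.1 CPM in the members of the 7 libraries, that of 4 natural killer markers 0 to 7.9 CPM and that of 5 dendritic cell markers 0 to 1.3 CPM. The 10 markers of monocytes, macrophages and microglia summed to 11.7 to 149.9 CPM, highest in UT and BP replicate 1. None of them was a gene of the gate, although the gate excluded cells with Ptprc or C1qa. In barcodes of at most 100 UMIs, taken as empty droplets, 9 of those myeloid genes summed to 518 to 3743 CPM, so that free RNA from the suspension could have given at most 0.629% to 3.88% of the members' UMIs and 0.0273% to 2.70% of their UMIs of the 4 genes. At the members' median depth this came to at most 0.964 UMIs of the 4 genes per cell in UT, 1.20 in BP replicate 1 and 0.0174 to 0.149 in the other 5 libraries. In UT and BP replicate 1 free RNA could thus bear on which cells had a low sum and which had a sum of 0. The 5 endothelial markers that the gate did not use summed to 96.3 CPM in the members of BPI, 63.9 in BP replicate 1 and 44.5 in UT, where cycling tumour cells held 5.17 to 25.1 and the cells with a sum of 0, at most 12 in each, held none, and to 0 to 14.4 CPM in the other 4 libraries. Markers of mural cells or fibroblasts reached 341 CPM in BP replicate 1 and 228 CPM in IgG replicate 2 but 0 to 62.2 CPM in the other 5 libraries. At least 3 UMIs of a set of 23 endothelial, mural, oligodendrocyte, astrocyte, neuron and ependymal markers were carried by 17 members in UT, 34 in BP replicate 1, 5 each in BPI and CD40, 1 in IgG replicate 2 and none in IgG replicate 1 and BP replicate 2, and their part in the results was not tested except where values without them are given. These were at most 17.9% of a library's members.

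The cells with a sum of 0, which serve as comparator, also held cells with markers of other types. The 10 tumour genes, 4 of them from the gate, summed to 1104 to 2400 CPM in these cells and to 766 to 1477 CPM in the members, and the sum was higher in the comparator in 6 of 7 libraries, all but BP replicate 1. That list also holds glial genes. Egfr or Cdkn2a was seen in a smaller share of comparator cells than of members in every library. The shares were 70.3% against 97.9% in IgG replicate 2, 65.6% against 98.3% in CD40 and 71.8% against 93.0% over all libraries. The members were deeper, which bears on these shares. In CD40 and IgG replicate 2, 38 of 122 and 25 of 145 comparator cells carried 3 or more UMIs of the markers of other brain cell types. Ttr, a transport protein made in bulk by choroid plexus epithelium, stood at 57400 CPM in the comparator cells of CD40 and 4777 CPM in those of IgG replicate 2, against 80.9 and 26.5 CPM in the members, and 82.6% and 99.4% of those comparator UMIs came from 5 cells in each library. Falls against this comparator are therefore read with these cells in view.

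**Figure D2:**
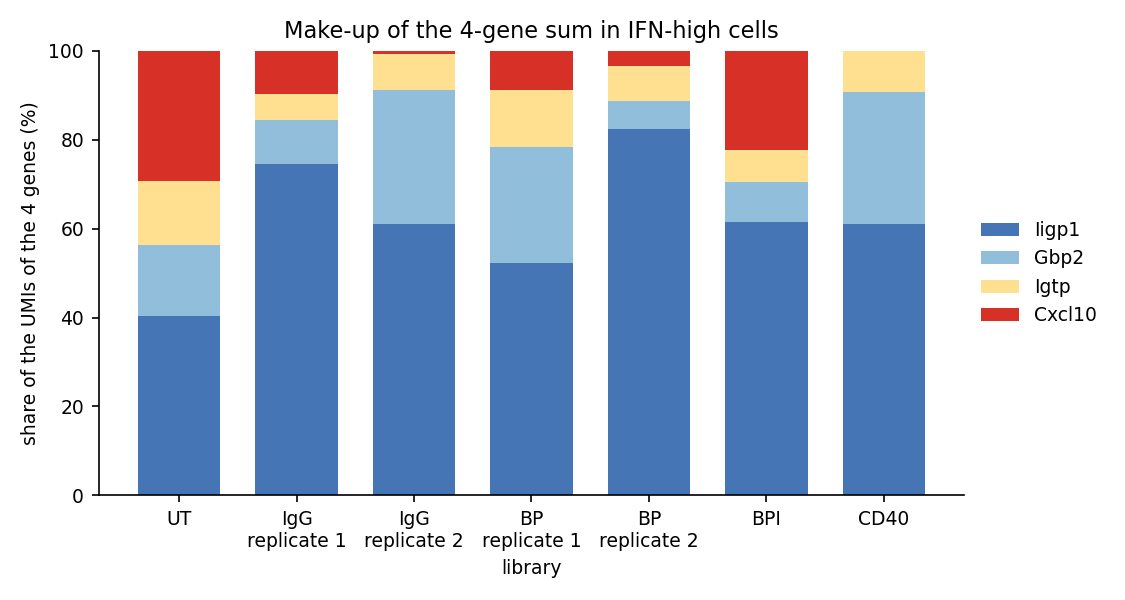
Makeup of the 4-gene sum in the interferon-responding cells of each library, as the percentage of the summed UMIs that came from Iigp1, Gbp2, Igtp and Cxcl10. Iigp1 gave the greatest part in all 7 libraries, and Cxcl10 gave 29.2% in UT but 0.144% in CD40.

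All 4 genes did not contribute alike. Iigp1 gave 53.6% of the 26546 UMIs of the 4 genes in the members and was seen in 536 of the 541 cells. Igtp was seen in 450 cells, Gbp2 in 438 and Cxcl10 in 243, and 187 cells had all 4. The median member had a sum of 25 and the highest had 305. Iigp1 lay on chromosome 18 (60376027 to 60392634, GRCm38, plus strand), Gbp2 on chromosome 3 (142620602 to 142638008, plus), Igtp on chromosome 11 (58199556 to 58207591, plus) and Cxcl10 on chromosome 5 (92346638 to 92348889, minus), all annotated as protein coding. Iigp1 and the guanylate-binding proteins belong to families with closely similar copies, and how the authors' counting divided reads between copies is not known from the values.

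Cxcl10 varied most between libraries. Its level in the members was 830 CPM in UT, 518 in BPI, 387 in BP replicate 1 and 201 in IgG replicate 1, but 48.3 in BP replicate 2, 29.2 in IgG replicate 2 and 6.65 in CD40. It was seen in 102 of 130 members in UT and in 4 of 58 in CD40. Gbp2 went another way, with 1364 CPM in CD40, 1211 in IgG replicate 2 and 1138 in BP replicate 1 against 457 in UT, 209 in BPI, 201 in IgG replicate 1 and 89.8 in BP replicate 2. Iigp1 kept within 1146 to 2816 CPM across the 7 libraries. The members of CD40 and IgG replicate 2 thus held much Gbp2 and Iigp1 with nearly no Cxcl10, whereas those of UT held all 4. In the labels the library names of IgG replicate 1, BP replicate 2 and BPI follow each other, as do those of CD40 and IgG replicate 2, and nothing says that names stand for a batch. The barcode list of UT is shorter than those of the other 6 (713553 against 1487060 to 2310016 entries), and treatment cannot be told apart from library for the groups with 1 library.

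Genes outside the rule were compared between members and other cells of the same library by summing UMIs per library and state and fitting the edgeR quasi-likelihood test with library as a block and Benjamini-Hochberg adjustment over all genes tested. The 14 genes of the gate were left out of the tested genes. The filter on low counts could be passed through the members alone. For genes nearly absent from the comparator a rise was thus partly fixed in advance, and counts of risers among them are a description. The planned comparison against cells with a sum of 0 needed 20 cells of each kind, which only IgG replicate 2 and CD40 had, and called 2427 of 10306 genes (23.5% of those tested), 1058 higher (10.3%) and 1369 lower (13.3%). Scaling by total counts moved the median difference of all genes from -0.03 to -0.157 on the log2 scale and the split to 795 higher and 1619 lower. Since the same reads separated the cells, these calls describe what accompanies the 4 genes in the same cells, are not independent evidence, and nothing is read from their share. With so few libraries, the p-values of the planned comparison do not measure the spread over mice or over the other libraries. More libraries entered with fewer cells or another comparator, and the comparisons with 5 cells and with Top2a and Mki67 allowed were added for that after seeing the data. With 5 cells of each kind, 6 libraries (all but BP replicate 1) entered and 488 of 6270 genes were called (7.78%), 332 higher (5.3%) and 156 lower (2.49%). With Top2a and Mki67 allowed in both states, so that both states were made mostly of cycling tumour cells, 6 libraries entered and 412 of 14684 were called (2.81%), 386 higher (2.63%) and 26 lower (0.177%). Against cells with a sum of 1 to 4 in 5 libraries (UT, IgG replicate 2, BP replicate 1, BPI and CD40), 171 of 8539 were called (2%), 152 higher (1.78%) and 19 lower (0.223%).

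In 3 of these 4 comparisons the cells above the threshold were members alone. The one with Top2a and Mki67 allowed held them among far more cycling cells, which were 853 of the 869 cells above the threshold in IgG replicate 1, 1468 of 1484 in BP replicate 2 and 2544 of 2628 in BPI, but 204 of 262 in CD40, so it is mainly a comparison of cycling cells. The 4 are not independent of each other. Of 6231 genes tested in all 4, 88 were higher in every one and 0 were lower in every one. Those 88 were 8.32% of the risers of the planned comparison, 26.5% of those with 5 cells, 22.8% of those with Top2a and Mki67 allowed and 57.9% of those against a sum of 1 to 4. Lists of interferon-related genes held 52 of the 88. The share of these lists among all 6231 genes is not given, so the 52 are a description. The other 36 were absent from the lists, which does not mean that they do not answer to interferon. Among them were Id3, Gadd45g, Rnf213, Samhd1, Ly6a, Lgals3bp, Adamts4, Csf1, Batf2, Tgm2 and Tlr3. Samhd1 encodes an enzyme that limits the nucleotides retroviruses need, and Tlr3 a receptor for double-stranded RNA.

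**Figure D3:**
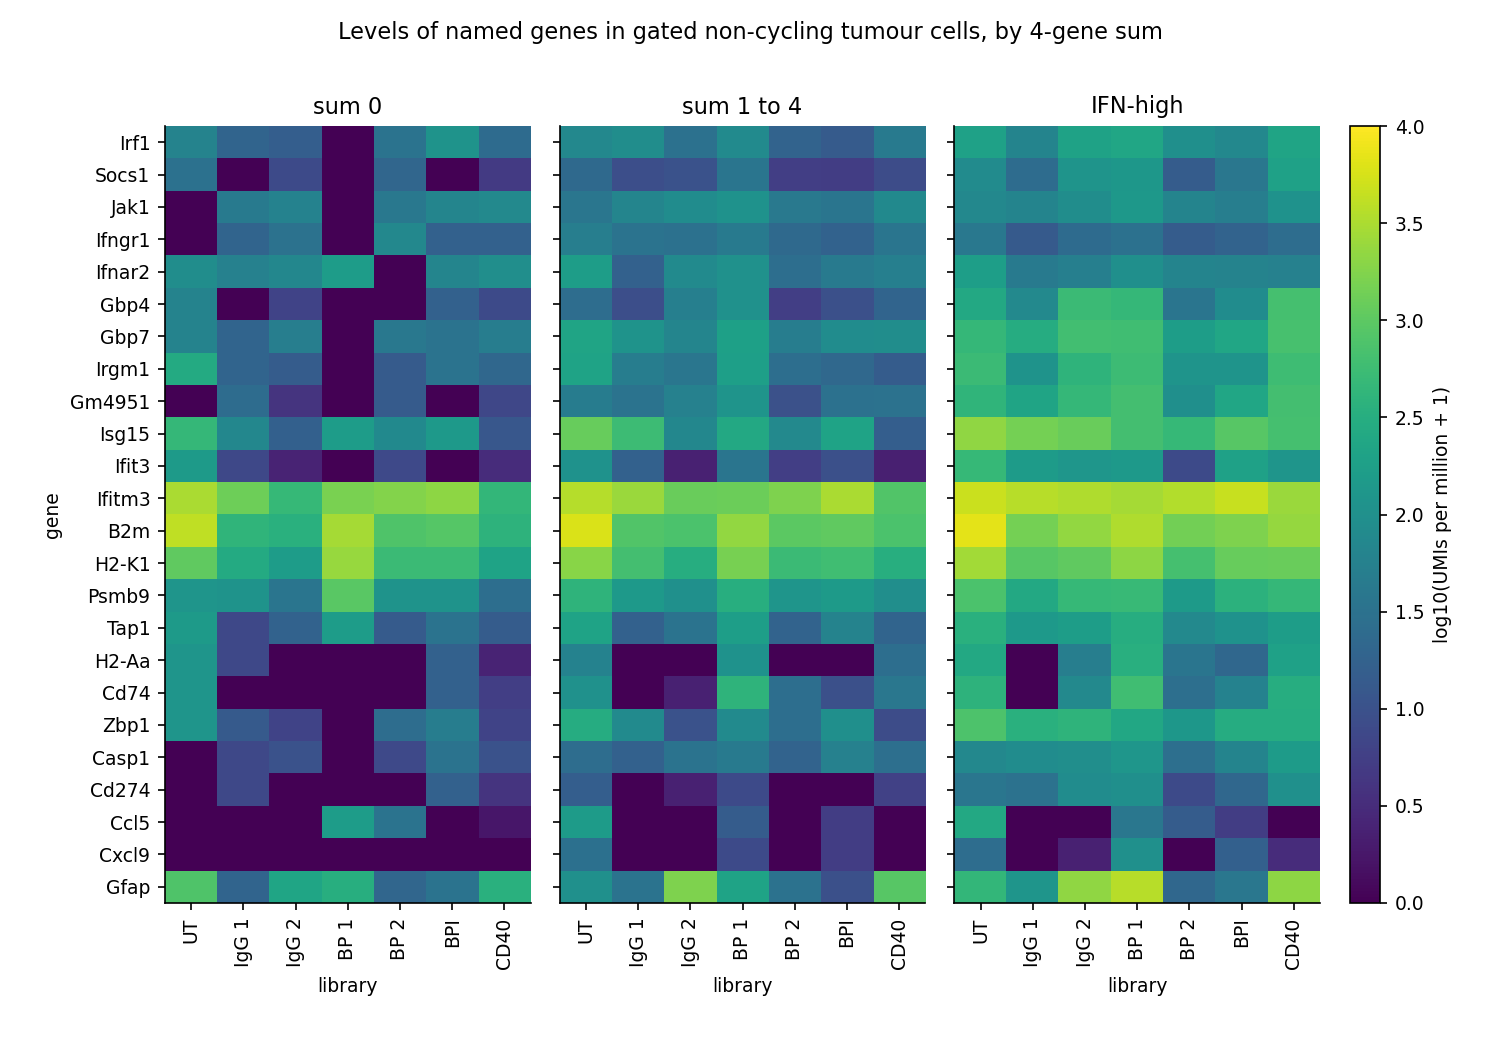
Levels of 24 genes (rows, log10 of CPM plus 1, colour scale) in gated non-cycling tumour cells with a 4-gene sum of 0, with a sum of 1 to 4 and in the interferon-responding cells, for each of the 7 libraries (columns). The guanylate-binding protein genes, Isg15 and the MHC class I genes are brighter in the interferon-responding cells, while Ifngr1 and Ifnar2 show no such pattern; BP replicate 1 holds only 3 cells with a sum of 0.

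The receptors did not stand out while the factors downstream of them did. Ifngr1 differed by 0.22 ± 0.38 on the log2 scale (edgeR quasi-likelihood test, SE, adjusted p = 0.755), Ifngr2 by 0.33 ± 0.35 (adjusted p = 0.568), Ifnar1 by 0.05 ± 0.36 (adjusted p = 0.941) and Ifnar2 by -0.48 ± 0.24 (adjusted p = 0.152) against cells with a sum of 0. These are low genes, with Ifngr1 at 12.6 to 39.0 CPM in the members of the 7 libraries. The kinases differed little more: Jak1 rose by 0.70 ± 0.22 and Jak2 by 1.05 ± 0.24. Irf1, a transcription factor of the interferon response, stood in the members at 192 CPM in UT, 62.8 in IgG replicate 1, 200.2 in IgG replicate 2, 231 in BP replicate 1, 96.7 in BP replicate 2, 73.0 in BPI and 215 in CD40. In cells with a sum of 0 it was 14.6 CPM in IgG replicate 2, 18.8 in IgG replicate 1, 24.1 in CD40, 32.7 in BP replicate 2, 60.8 in UT and 114 in BPI, and BP replicate 1 had no Irf1 UMI in its 3 such cells. In BPI, where 12 such cells held 7 UMIs, the value lay above that of the members, and in the other 6 libraries it lay below. Cycling tumour cells, whatever their sum, held 184 CPM of Irf1 in UT, 159 in BP replicate 1 and 51.5 in BPI, but 21.1 to 34.2 in the other 4.

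Other members of the signalling list followed. Socs1, which switches JAK kinases off and is itself induced by interferon, rose by 4.93 ± 0.32, from 5.33 to 155 CPM on average over the 2 libraries. Over 6 libraries with 5 cells the rise of Socs1 was 4.34 ± 0.46 and that of Irf1 2.67 ± 0.39. In the planned comparison Irf1 rose by 3.55 ± 0.25, Stat2 by 3.02 ± 0.34 and Irf9 by 2.52 ± 0.57. In all, 13 of 19 tested genes of the receptors and signalling list rose and 0 fell in the planned comparison (median 1.05 against -0.03 over all genes), 10 of 17 rose with 5 cells, 11 of 20 with Top2a and Mki67 allowed and 7 of 19 against a sum of 1 to 4. Where they were tested, the 4 receptor genes passed in none of these. Against a sum of 1 to 4, Jak1, Jak2, Stat3, Irf7, Irf9 and Usp18 did not pass either.

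The guanylate-binding proteins and immunity-related GTPases other than the 3 in the rule moved as one group. All 16 tested members rose in the planned comparison, with a median difference of 6.09, and all 16 rose against cells with a sum of 1 to 4, with a median of 3.28, where the median over all genes was -0.00128. With 5 cells the filter on low counts left 10, which all rose. The list summed to 105 and 136 CPM in the comparator cells of IgG replicate 2 and CD40, against 4085 and 5268 CPM in the members. Some of these genes could therefore pass the filter through the members alone. Irgm1, which controls the other GTPases of its family, held 524 CPM in the members of UT, 113 in IgG replicate 1, 400 in IgG replicate 2, 551 in BP replicate 1, 117 in BP replicate 2, 118 in BPI and 577 in CD40. UT, BP replicate 1, IgG replicate 2 and CD40 lay high and the other 3 low, and the cells with a sum of 0 held 0 to 32.5 CPM in all libraries but UT, where 9 such cells gave 273. The difference was 4.95 ± 0.24. F830016B08Rik, a predicted GTPase gene of the Iigp1 family on the same chromosome, was at 94.5 to 593 CPM in the members and had no UMI in the comparator cells of IgG replicate 2 and CD40. Set against the floor of 3 counts over that group, it was at least 427-fold higher. Gbp4 rose by 6.71 ± 0.28, Gbp5 by 6.21 ± 0.35, Gbp7 by 3.84 ± 0.21 and Gm4951 by 7.00 ± 0.29. With 5 cells and 6 libraries the rises were 3.98 ± 0.40 for Irgm1, 5.42 ± 0.42 for Gbp5 and 6.18 ± 0.41 for Gm4951. Gbp8 and Gbp4 overlap in the GENCODE vM21 annotation, and the members of these families are close copies, so the division between them is uncertain.

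Antiviral genes of the type I response rose with them. Many genes answer to both kinds of interferon, and which kind acted here was not tested. All 25 tested members rose in the planned comparison (median 3.59), all 20 with 5 cells, all 28 with Top2a and Mki67 allowed and 20 of 26 against a sum of 1 to 4. Isg15, a ubiquitin-like protein joined to viral and host proteins, was at 2158 CPM in the members of UT, 1476 in IgG replicate 1, 1216 in IgG replicate 2, 639 in BP replicate 1, 476 in BP replicate 2, 897 in BPI and 657 in CD40. It was highest in UT and lowest in BP replicate 2, and every one of these values lay above the 11.3 to 456 CPM of cells with a sum of 0. It differed by 6.20 ± 0.26 in the planned comparison (adjusted p = 1.37e-22, edgeR). Ifit3, which binds viral RNA with its partner Ifit1, was at 483 CPM in UT and 193 in BPI, 122 to 157 in IgG replicate 1, IgG replicate 2, BP replicate 1 and CD40, and 6.90 in BP replicate 2, which rests on 1 cell with a UMI. Ifitm3, Bst2 and Ifi27 differed by 2.76 ± 0.25, 2.19 ± 0.20 and 0.75 ± 0.19. Ifitm3 already stood at 483 and 449 CPM in the comparator cells of IgG replicate 2 and CD40, and at 1288 to 3069 CPM in those of the other 5 libraries. With 5 cells and 6 libraries the differences were smaller, at 4.39 ± 0.41 for Isg15, 1.63 ± 0.22 for Ifitm3 and 1.59 ± 0.18 for Bst2. Mx1, Mx2 and Cxcl11 were not analysed here.

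MHC class I, which presents peptides of the cell's own proteins to CD8 T cells, rose from a level that was not low. B2m, its light chain, stood in the members at 6846 CPM in UT, 1476 in IgG replicate 1, 2258 in IgG replicate 2, 3317 in BP replicate 1, 1388 in BP replicate 2, 1696 in BPI and 2347 in CD40. In the cells with a sum of 0 it was 349 CPM in IgG replicate 2 and 384 in CD40 but 4193 in UT, where only 9 such cells were found. Those 9 cells of UT held more B2m than the members of any of the other 6 libraries. The difference in the planned comparison was 2.78 ± 0.23, and that of the heavy chain H2-K1 was 2.73 ± 0.21. The immunoproteasome subunits Psmb8 and Psmb9 differed by 3.95 ± 0.22 and 4.03 ± 0.22, the peptide transporter Tap1 by 3.59 ± 0.25 and Nlrc5, the transactivator of MHC class I genes, by 4.62 ± 0.34. With 5 cells and 6 libraries these differences were smaller, at 1.66 ± 0.23 for B2m, 1.73 ± 0.23 for H2-K1, 2.32 ± 0.35 for Psmb8, 2.73 ± 0.36 for Psmb9 and 3.93 ± 0.42 for Nlrc5. The list gave 20 of 21 risers in the planned comparison, 17 of 19 with 5 cells, 19 of 22 with Top2a and Mki67 allowed and 16 of 22 against a sum of 1 to 4, with no member lower in any of them. Pdia3, a chaperone of the loading complex, passed the test in none.

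MHC class II, which tumour cells usually lack and which interferon gamma can switch on through Ciita, separated the libraries. Cd74, the class II invariant chain, was at 590 CPM in the members of BP replicate 1, 385 in UT and 309 in CD40, but at 74.3 in IgG replicate 2, 58.4 in BPI, 27.6 in BP replicate 2 and 0 in IgG replicate 1. It was seen in 154 of 190 members in BP replicate 1 and 89 of 130 in UT, so it was not carried by a few cells there, and in 0 of 16 in IgG replicate 1. H2-Aa followed with 334, 257 and 196 CPM in BP replicate 1, UT and CD40, and Ciita, the transactivator itself, with 61.5, 32.9 and 52.1 CPM. In the planned comparison Cd74 differed by 6.45 ± 0.37, H2-Aa by 7.24 ± 0.46 and Ciita by 5.14 ± 0.61, all 6 tested genes of the list rose (Cd74 by 5.28 ± 0.54 with 5 cells), and all 6 also rose against a sum of 1 to 4 (median 2.24). With Top2a and Mki67 allowed 3 of 6 rose. The 7 listed genes summed to only 16.1 and 16.6 CPM in the comparator cells of IgG replicate 2 and CD40. In the members of those libraries the sums were 385 and 1025 CPM. The genes passed the filter on low counts mainly through the members, so the count of risers was largely fixed by it. Leukocytes make these proteins in bulk and free RNA carries them: free RNA could account for at most 25.1% of the Cd74 level in the members of UT, 11.7% in BP replicate 1 and 0.525% in CD40.

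Of the 11 inhibitory ligands and enzymes listed, 6 were tested in the planned comparison, of which Cd274, Cd47, H2-T23 and Lgals9 rose, and Cd274 and H2-T23 also rose against a sum of 1 to 4. Cd274, which encodes PD-L1, the target of an antibody given to the BP and BPI mice, was at 102 CPM in CD40, 98.3 in BP replicate 1 and 87.5 in IgG replicate 2, and at 36.0 in UT, 31.4 in IgG replicate 1, 20.4 in BPI and 6.90 in BP replicate 2. It was seen in 98 of 190 members in BP replicate 1, 27 of 58 in CD40, 20 of 47 in IgG replicate 2, 30 of 130 in UT, 12 of 84 in BPI, 2 of 16 in IgG replicate 1 and 1 of 16 in BP replicate 2. In the planned comparison, which rests on IgG replicate 2 and CD40 alone, Cd274 differed by 5.98 ± 0.46 (adjusted p = 1.72e-14, edgeR). The cells with a sum of 0 in those libraries held 0 and 3.02 CPM, so the gene entered the test through the members. H2-T23, a nonclassical class I molecule read by inhibitory receptors of natural killer cells, rose by 4.11 ± 0.25 and Lgals9 by 2.54 ± 0.44, while Nectin2 and Pvr did not pass the test. Ido1, a tryptophan-degrading enzyme that interferon gamma induces in many human cells, had 0 UMIs in the members of all 7 libraries. Of 14 tested cell death genes 13 rose in the planned comparison and 5 of 13 against a sum of 1 to 4: Apol9a, Casp1, Casp4, Mlkl and Zbp1. Zbp1, a sensor of Z-form nucleic acids that starts necroptosis, rose by 6.11 ± 0.28 and stood at 131 to 769 CPM in the members. Mlkl, which carries necroptosis out at the membrane, rose by 2.48 ± 0.27 and Casp1, the inflammatory caspase, by 3.87 ± 0.29. With 5 cells and 6 libraries Zbp1 rose by 4.90 ± 0.39 and Lgals9 by 1.89 ± 0.36. These are RNA levels and say nothing of whether cells died.

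**Figure D4:**
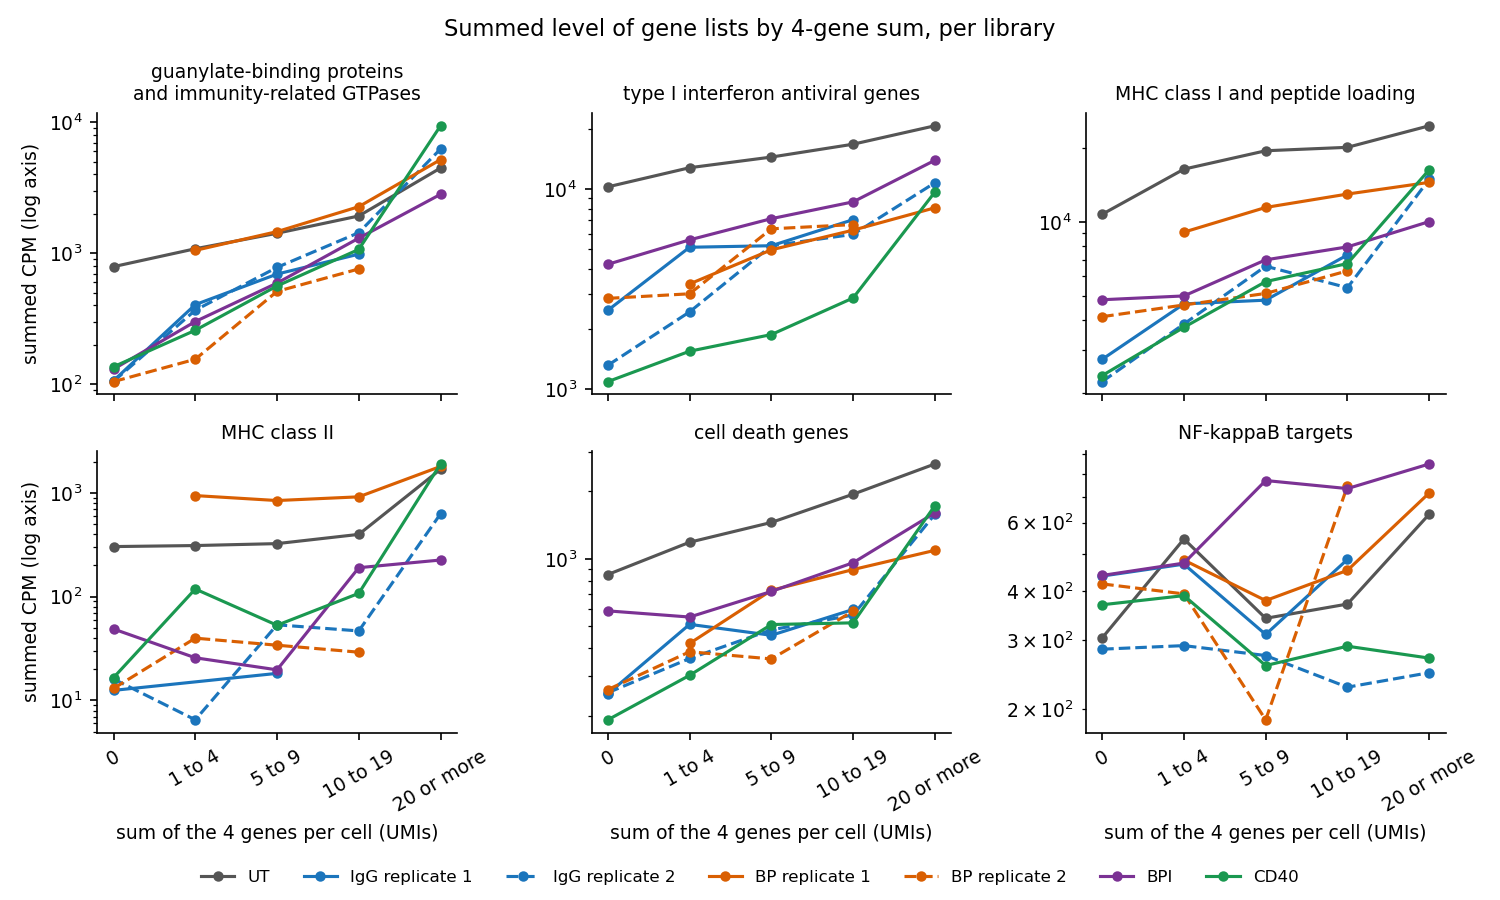
Summed level of 6 gene lists (CPM, log axis) in gated non-cycling tumour cells binned by their 4-gene sum, with 1 line for each of the 7 libraries. The guanylate-binding protein list and the class I list are lowest at a sum of 0 and highest at 20 or more in UT, IgG replicate 2, BPI and CD40, which have both bins, whereas the NF-kappaB targets show no common course.

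The gradient within the cells gives the same genes over bins of the 4-gene sum. The bins cut the sum that the rule used, with its threshold of 5 as an edge. They are a description and not separate support, and the libraries differ between bins. Over the libraries with enough cells in a bin, the median summed level of the 16 guanylate-binding proteins and GTPases was 118 CPM at a sum of 0 (6 libraries, 344 cells), 367 CPM at 1 to 4 (7 libraries, 266 cells), 693 CPM at 5 to 9 (111 cells), 1304 CPM at 10 to 19 (122 cells) and 5194 CPM at 20 or more (5 libraries, 302 cells). MHC class I went from 3430 CPM to 4632, 6602, 7337 and 14930 CPM over the same bins. The class II list had medians of 16.3 to 108 CPM up to a sum of 19 and 1687 CPM at 20 or more. Between the last 2 bins it went from 398 to 1687 CPM in UT, 46.8 to 628 in IgG replicate 2, 916 to 1797 in BP replicate 1 and 108 to 1899 in CD40, but only from 190 to 225 in BPI. Cd274 went between the same bins from 2.47 to 58.7 CPM in UT, 6.68 to 147 in IgG replicate 2, 36.4 to 104 in BP replicate 1, 18.1 to 34.4 in BPI and 0 to 191 in CD40. In UT and BP replicate 1 the class II lines lie above those of the other libraries in the bins from 1 to 19 as well. NF-kappaB targets ranged over 310 to 631 CPM with no steady course, and none of their 6 tested members rose in the planned comparison. Deeper cells reach higher sums, so these bins also differ in depth.

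Gene lists named for tumour states gave less uniform results. Gfap, an intermediate filament of astrocytes, was at 3757 CPM in the members of BP replicate 1, 2175 in IgG replicate 2, 2080 in CD40, 437 in UT and 119 in IgG replicate 1, but at 37.9 in BPI and 20.7 in BP replicate 2. In cycling tumour cells the highest library, BP replicate 1, had 248 CPM. The 13 astrocyte-like genes summed to 10968 CPM in the members of BP replicate 1, against 1366 CPM in its cycling tumour cells. The sums were 3707 against 810 CPM in IgG replicate 2 and 3815 against 826 CPM in CD40. The members lay higher than cycling cells in every other library too. Non-cycling cells with a sum of 0 lay above the members in UT (9449 against 4492 CPM), CD40 (4723 against 3815) and BP replicate 2 (999 against 580). They lay below them in IgG replicate 2 (3019 against 3707), BPI (618 against 681), IgG replicate 1 (363 against 1897) and BP replicate 1 (1111 against 10968). UT and BP replicate 1 held only 9 and 3 such cells. Whether host astrocytes were among the members was not tested. Gfap differed by 3.05 ± 0.24 in the planned comparison and did not pass the test with Top2a and Mki67 allowed or against a sum of 1 to 4, where the comparator of IgG replicate 2 held 1694 CPM. Aldoc rose by 1.37 ± 0.19, while 9 of the 13 tested genes of the astrocyte-like list fell, among them Clu (-3.67 ± 0.25) and Fabp7 (-2.01 ± 0.22). Only S100b of that list was lower against a sum of 1 to 4, and none was called with Top2a and Mki67 allowed. Vim rose by 1.42 ± 0.21 and Vcan by 1.86 ± 0.19, and neither passed with Top2a and Mki67 allowed (adjusted p = 0.562 and 0.0612, edgeR) or against a sum of 1 to 4 (0.220 and 0.0915).

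The largest falls were of genes with no UMI in the members of IgG replicate 2 and CD40. Htr2c, a serotonin receptor that marks choroid plexus, was at least 246-fold lower than in the comparator, measured against the floor of 3 counts over the members of IgG replicate 2 and CD40, and Ntrk2, Cntn1, Opcml, Pcdh7, Gria2, Vat1l and 2900040C04Rik were at least 53.3-fold to 88.4-fold lower. Most of these are genes of neurons, astrocytes or choroid plexus. Members of UT and BP replicate 1, which did not enter this comparison, did hold some of them, among them Opcml with 57 UMIs in 1 cell of UT and 377 in 6 cells of BP replicate 1, and Cntn1 with 9 UMIs in 3 cells and 73 in 6. Leaving out cells that carried markers of other brain cell types took the fallers from 1369 to 688 of 8797 tested (7.82%) and the risers from 1058 to 924 (10.5%). Without those cells 16 of 16 GTPase genes, 25 of 25 antiviral genes, 19 of 21 class I genes and 6 of 6 class II genes were higher, and 4 of 10 tested astrocyte-like genes were lower. G1/S genes, whose levels the division filter bears on, fell in 9 of 15 tested cases and rose in 1 (Ccnd1, 1.45 ± 0.20), with none called against a sum of 1 to 4 or with Top2a and Mki67 allowed.

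Cxcl10 itself divides the members. In the 3 libraries with 20 cells of each kind (UT, BP replicate 1 and BPI), members with and without a Cxcl10 UMI were compared. Library was a block, and the 14 genes of the gate were left out of the tested genes. Of 9128 genes, 98 were called (1.07%), 82 higher (0.898%) and 16 lower (0.175%). Leaving out cells with markers of other brain cell types gave 145 of 8323, 91 higher and 54 lower. Leaving out UT gave 138 of 9290, 92 higher and 46 lower. The largest rises by the naming rule were of Cxcl9, Ccl2 and Bgn. Cxcl9, which binds the same receptor as Cxcl10, held 29.8 against 9.10 CPM in UT, 214 against 8.27 in BP replicate 1 and 30.8 against 2.77 in BPI, a difference of 4.27 ± 0.33 (adjusted p = 2.12e-08, edgeR, higher in 3 of 3 libraries). Ccl2, which draws monocytes, held 103 against 3.03 CPM in UT, 140 against 6.36 in BP replicate 1 and 105 against 36.0 in BPI (3.48 ± 0.35). Bgn, a matrix proteoglycan, held 168 against 10.2 CPM in BP replicate 1 but 22.1 against 18.2 in UT and 3.08 against 2.77 in BPI, so its difference of 3.37 lay nearly all in BP replicate 1. With DESeq2 Cxcl9 and Ccl2 were called and Bgn was not, and without BP replicate 1 Cxcl9 lost its call. Of 6 tested chemokines Ccl2, Ccl5, Ccl7, Cxcl1 and Cxcl9 rose, 12 of 28 antiviral genes rose, and none of 22 class I and none of 7 class II genes was called. Gfap and Aldoc were lower in the members with Cxcl10, as was Nos1, the neuronal nitric oxide synthase (-1.70 ± 0.23), which was not called with DESeq2. A few cells weigh heavily in these chemokines: 1 cell of BP replicate 1 held 198 of its 292 Cxcl9 UMIs, and 1 held 102 of its 193 Ccl2 UMIs. In UT 1 cell held 23 of 42 Cxcl9 UMIs and 1 held 69 of 136 Ccl2 UMIs, and in BPI 1 cell held 9 of 11 Cxcl9 UMIs. For Ccl5, 1 UT cell held 325 of 421 UMIs. Free RNA could have given at most 11.3% of the Ccl5 level of the members in UT, 28.8% in BP replicate 1 and 72.3% in BPI, and at most 25.4% of the Cxcl9 level in UT. Without BP replicate 1 the count was 40, and without BPI it was 269.

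Ifng and Ifnb1 were nearly absent from these cells, and other interferon genes were not examined. Ifng had 1 cell with a UMI among the members of UT and 2 in BP replicate 1, with none in the other 5 libraries. Ifnb1, a type I interferon, was found in 1 member of 541. That UT cell held 74 Ifnb1 UMIs, 325 of the 421 Ccl5 UMIs of all UT members (77.2%), 111 of Cxcl10 and 182 of Isg15 among 23936 UMIs. It carried 1 UMI of Egfr, 2 of Cdkn2a and 5 of Nes, none of the macrophage gene Lyz2 and 1 of Tyrobp, and its Scrublet score did not mark it as a doublet. The cell was chosen after its values were seen.

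**Figure D5:**
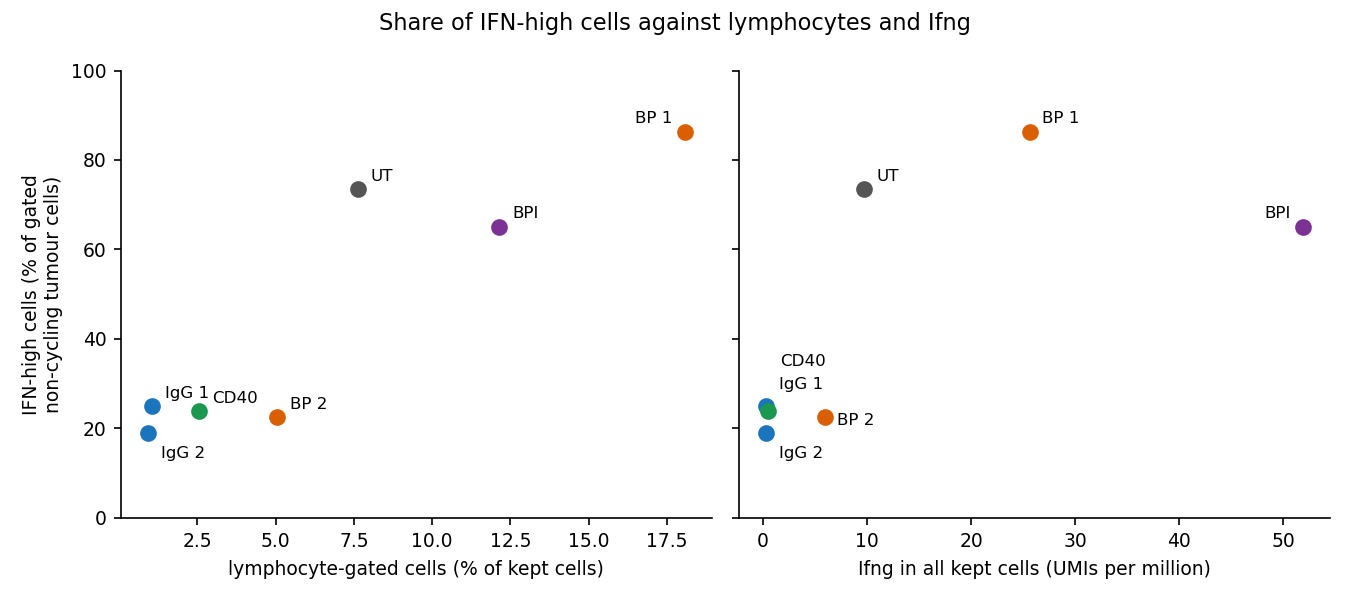
Share of interferon-responding cells (% of gated non-cycling tumour cells, vertical axis) in the 7 libraries against the share of lymphocyte-gated cells (% of kept barcodes) and against the Ifng level of all kept barcodes (CPM). The 3 libraries with shares of 65.1% or more have 7.64% to 18.1% lymphocyte-gated cells, and the other 4 have 0.924% to 5.06%.

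Lymphocyte-gated barcodes and the Ifng level of the same libraries were set beside the shares, and Ifng was not divided by cell type. Barcodes with Ptprc and at least 2 UMIs of Cd3e, Cd3d, Cd3g, Trac and Nkg7 made up 18.1% of kept barcodes in BP replicate 1, 12.2% in BPI and 7.64% in UT, and 5.06% in BP replicate 2, 2.56% in CD40, 1.05% in IgG replicate 1 and 0.924% in IgG replicate 2. Ifng over all kept barcodes was 51.9 CPM in BPI, 25.7 in BP replicate 1 and 9.72 in UT, and 5.96 in BP replicate 2 and 0.311 to 0.499 in the other 3. The 3 libraries with the highest shares were thus the 3 with the most lymphocytes and Ifng. The 4 lower shares were not told apart, so no order is read among them. With Top2a and Mki67 allowed, BP replicate 2 had the highest share of these 4 (38.9%, against 21.1% in IgG replicate 1, 7.25% in IgG replicate 2 and 5.50% in CD40). Correlations of the share with lymphocytes and with Ifng over the 7 libraries had been planned and are not given, because the shares fell into clusters of 3 and 4 libraries.

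Cycling tumour cells of the same libraries were set beside the non-cycling ones. A cell counted as cycling with 1 UMI of Top2a or Mki67, and depth bears on that call. Median depth was 11007 to 20695 UMIs in cycling cells and 6826 to 13664 in gated non-cycling cells, and it was higher in cycling cells in every library. Thinning was applied to the 4-gene sum, while the cycling call kept all UMIs. With cells thinned to 3000 UMIs, 49.5% of cycling cells passed the threshold in UT, 3.58% in IgG replicate 1, 1.49% in IgG replicate 2, 76.8% in BP replicate 1, 14.0% in BP replicate 2, 39.2% in BPI and 1.31% in CD40. Non-cycling cells had a higher share by 9.87 to 11.9 percentage points in IgG replicate 1, IgG replicate 2 and CD40 and differed from cycling cells by -3.70 to 2.05 points in the other 4. Over the 7 libraries the mean difference was 4.17 points ± 6.31 (SD), higher in 5 of 7, with a two-sided exact permutation p of 0.172. Leaving out cells with markers of other brain cell types gave 5.29 points and an exact p of 0.141.

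Treatment was tested within the members on their summed UMIs, with 10 members needed per library because 20 would have left no degrees of freedom. No gene of 10637 was called by edgeR for BP, BPI, CD40 or UT against IgG (0% each), with 150, 183, 60 and 372 genes at an unadjusted p under 0.05. DESeq2 called 0, 0, 0 and 6. A block that set IgG replicate 1 with BP replicate 2, both with Wfdc2, and IgG replicate 2 with BP replicate 1 was added after seeing the data, and under it BP differed from IgG in 41 genes out of 6953 (26 up, 15 down), where the same 4 libraries without it gave 0. IgG replicate 1 and BP replicate 2 had only 16 members each, and each group with 1 library (BPI, CD40, UT) borrowed the spread of the IgG and BP groups. Without BP replicate 2 the counts were 113 for BP, 98 for BPI, 12 for CD40 and 139 for UT. The labels do not say whether replicates were implanted separately, so the p-values measure the spread between these pooled libraries.

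Whether the difference between members and other cells itself changed with treatment was tested as an interaction. For BP against IgG, with cells of a sum of 1 to 4 as the other state, 4 of 4836 genes were called (0.0827%). These were Vtn, A2m and Mgp, which were higher (0.062%), and Magi2, which was lower (0.0207%), none of them on the interferon lists. The division of the libraries by Wfdc2 had no term in this fit. All 4 lost the call without BP replicate 1 and without IgG replicate 2, only Vtn kept it with DESeq2, and none kept it with Top2a and Mki67 allowed. Vtn, which encodes vitronectin, stood in the members at 101 CPM in BP replicate 1, 75.6 in UT, 13.3 in IgG replicate 2, 6.28 in IgG replicate 1 and 0 in BP replicate 2, so the BP libraries lay far apart. Few cells carried it: 8 of 190 members held the 291 UMIs of BP replicate 1, and 1 UT cell held 114 of 124. For the 3 libraries of consecutive names (IgG replicate 1, BP replicate 2 and BPI), which are also those with Wfdc2, against UT, IgG replicate 2 and CD40, with cells of a sum of 0 as the other state and BP replicate 1 left out for its 3 such cells, 15 of 7918 genes were called (0.189%), 10 higher (0.126%) and 5 lower (0.0631%). The higher ones took in Wfdc2 itself (4.34 ± 0.89), by which the 3 libraries are described here, so its call adds nothing to that division. Among the lower ones was Psmb9 (-2.75 ± 0.43, adjusted p = 0.00465 by edgeR), which encodes an inducible proteasome subunit. The comparator cells with markers of other types, seen in CD40 and IgG replicate 2, entered this fit. The count was 58 without cells carrying such markers, 1 with a threshold of 3 and 0 against a sum of 1 to 4. With Top2a and Mki67 allowed, in mostly cycling cells, 430 of 15921 genes were called (2.7%), 49 higher (0.308%) and 381 lower (2.39%), and the lower ones took in 13 of 22 class I genes, 8 of 16 guanylate-binding proteins and GTPases and 5 of 7 class II genes. These counts thus describe cells above and below the threshold whether or not they cycled, and not the members alone. Psmb9 in the members of IgG replicate 1, BP replicate 2 and BPI was 152 to 372 CPM against 452 to 738 in the members of UT, IgG replicate 2 and CD40.

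The same windows before the start sites were searched across genes. Of 32851 promoter entries in the RefSeq table, 8.30% held GAS, 3.44% ISRE and 11.3% either. Among the 6231 genes tested in all 4 comparisons the shares were 6.57%, 3.15% and 9.28%, while among the 88 that rose in all 4, of which 70 had an entry (86 entries), they were 18.6%, 32.6% and 41.9%. The guanylate-binding protein and GTPase list had 80% with ISRE and 50% with GAS over 10 entries, the antiviral list 64% and 24% over 25, and the class I list 23.8% and 9.52% over 21. None of the 5 class II entries held either. A missing match says only that those letters are not in this window.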

How the data were processed

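The authors deposited, per library, a sparse matrix of raw UMI counts per gene and barcode. The file headers name Cell Ranger 4, the submitters' processing notes name Cell Ranger 7.0.1 and the build mm10, and the conflict was not settled. Per the labels' protocols, libraries were made with the 10x 3′ kit, V2 chemistry, aiming for 6000 cells.

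From these counts, cells were gated by the rule stated above, summed per library and state, and tested with edgeR 4.0.16 (quasi-likelihood, TMM, filterByExpr, Benjamini-Hochberg over all genes tested, threshold 0.05) in R 4.3.3, with DESeq2 1.42.0 as an alternative. The fitting steps were tested on simulated data. Members and gene lists were chosen with earlier results of these data known. The planned minimum of 20 cells left 2 libraries for the comparison with cells of a sum of 0 and no degrees of freedom for treatment within members. Comparisons with 5 or 10 cells and with Top2a and Mki67 allowed were therefore chosen after seeing the data. The comparison against a sum of 1 to 4 had been planned as a second comparator. Named genes were those past the threshold, at an average log2 CPM of at least 5 and in the same direction in every library: the 12 largest rises and 8 largest falls of the planned comparison, 3 of each in every other, up to 4 called members per list with the highest level, and a fixed set of interferon genes. Other genes named in the text come from the lists or were chosen after their values were seen. Doublets were kept, and an alternative removed the highest Scrublet scores (scanpy 1.11.5), at 0.8% per 1000 cells. Other alternatives changed the 4-gene threshold, the gate, the mitochondrial limit, the comparator, scaling, the filter on low counts and the libraries included. Some genes are not reported here. Gene positions are from GENCODE vM21. Intervals cover counting error only.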

Additional observations from a re-analysis of the deposited data

Results flagged for a closer look

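The difference between interferon-responding cells and cells with a sum of 1 to 4 itself differed between BP and IgG for 4 genes (edgeR interaction test with Benjamini-Hochberg adjustment). Vtn differed by 6.15 ± 0.70 on the log2 scale (SE, adjusted p = 0.0226), A2m by 5.24 ± 0.73 (adjusted p = 0.0303), Mgp by 4.75 ± 0.68 and Magi2 by -3.72 ± 0.54. All 4 lost the call without BP replicate 1, without IgG replicate 2 and with Top2a and Mki67 allowed, and 3 of them with DESeq2. Mgp stood in the members at 550 CPM in BP replicate 1 and at 25.1 to 53.0 in both IgG libraries and BP replicate 2. A2m stood at 377 CPM in BP replicate 1 and 273 in IgG replicate 2 but at 6.90 in BP replicate 2. The division of the libraries by Wfdc2 had no term in this fit. Markers of mural cells or fibroblasts were also highest in the members of BP replicate 1 and IgG replicate 2, and their part in these values was not tested.

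Between IgG replicate 1, BP replicate 2 and BPI on one side and UT, IgG replicate 2 and CD40 on the other, the difference between members and cells with a sum of 0 differed for 15 genes, and for 0 against cells with a sum of 1 to 4. Ttr differed by 6.27 ± 1.14 (adjusted p = 0.0192, edgeR), Chchd10 by 5.90 ± 0.79 (adjusted p = 0.000844) and Ptgds by 4.71 ± 0.85, while Tgm2 differed by -4.16 ± 0.82 (adjusted p = 0.033) and Fabp5 by -2.89 ± 0.52. The value of Ttr goes with the few comparator cells of CD40 and IgG replicate 2 that held most of its UMIs. Against cells with a sum of 1 to 4 it was -0.833.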

How the results depend on the processing

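The planned comparison of members with cells of a sum of 0 called 2427 genes, and 521 with a threshold of 3, 1337 with the stricter tumour gate, 171 against a sum of 1 to 4, 1612 without cells carrying other-type markers, 462 with DESeq2 and 1570 with no library block. It rests on IgG replicate 2 and CD40, and leaving out either gave no test. With 5 cells of each kind the count of 488 became 206 with comparator cells matched by total UMIs, 156 against a sum of 1 to 4, 220 with DESeq2, 1536 with no filter on low counts, 75 with no library block, and 72 (without IgG replicate 2) to 707 (without BP replicate 2) when 1 library was left out, with 81 without CD40. With Top2a and Mki67 allowed the count of 412 became 260 matched by total UMIs, 845 with no filter, 61 with no library block, and 228 (without IgG replicate 2) to 462 with 1 library left out. Against a sum of 1 to 4 the count of 171 became 85 (without IgG replicate 2) to 196, with 96 without CD40 and 100 without BPI. The cause of these shifts was not tested.

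Within members, the count of 0 became 26 for BP, 37 for BPI, 7 for CD40 and 46 for UT with no filter on low counts, and 6 for UT with DESeq2. Leaving out 1 library gave 0 to 113 for BP (7 without IgG replicate 1), 0 to 98 for BPI (46 without IgG replicate 1, 2 without BP replicate 1), 1 to 12 for CD40 and 9 to 139 for UT, each highest without BP replicate 2. Same-numbered BP and IgG libraries did not deviate together (r = -0.413 across 10641 genes), so they share only a number. The replicate block called 0 of 6953 genes, as did these libraries without it, and a crossed block called 41. The BP interaction of 4 genes became 1 with DESeq2 and 3 to 221 with 1 library left out (221 without BP replicate 2, 43 without IgG replicate 1). The library-name interaction of 15 became 6 with DESeq2, 1 with a threshold of 3, 6 matched by total UMIs, 58 without cells carrying other-type markers, 0 against a sum of 1 to 4, 430 with Top2a and Mki67 allowed, and 2 (without IgG replicate 2) to 39 (without IgG replicate 1). The Cxcl10 comparison of 98 became 9 with DESeq2, 246 with no filter, 145 without cells carrying other-type markers, and 40 (without BP replicate 1) to 269 (without BPI).

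The BP-minus-IgG share of 32.5 points ranged over 29.3 to 53.2 under other gates and thresholds, and 0.597 to 64.4 with 1 library left out. Against a sum of 1 to 4, Cyp51 (-0.108), Fdps (-0.420) and Lgals1 (-0.0276) changed sign on the log2 scale, as did Scd2 (0.309) without cells carrying other-type markers and, in the interactions, Vtn (-0.0132) with Top2a and Mki67 allowed and Ttr (-0.833) against a sum of 1 to 4. Of the values of named genes under the alternatives of the planned comparison, 829 kept direction and side of the threshold, 107 lost the call and 4 changed sign. The losses were uneven. With DESeq2, 51 were kept and 32 lost the call. Against a sum of 1 to 4, 37 were kept, 32 lost the call and 3 changed sign. The 2 planned correlations of shares with lymphocytes and Ifng were not run, since the 7 libraries fell into 2 clusters. For the BP interaction, thresholds of 3 and matching by total UMIs were not run.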

Other observations

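Against cells with a sum of 1 to 4, where 2% of all genes tested were called, none of 11 tested hypoxia and glycolysis genes, 11 mesenchymal-like genes, 14 G1/S genes and 15 sterol and fatty-acid synthesis genes was called, and 1 of 10 immediate-early and heat-shock genes rose (edgeR quasi-likelihood test, Benjamini-Hochberg adjusted). In members with Cxcl10 against those without, where 0.898% of all genes tested rose, 3 of 9 tested NF-kappaB targets rose (Ccl2, Cxcl1 and Nfkbia), as did 4 of 15 cell death genes. The split used a gene of the rule and was not matched for depth, so these counts only describe it. DESeq2 called 9 genes in that comparison against 98 by edgeR.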
